A study of Macaca fascicularis with 64 samples.

Results

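TXNIP, ARRDC4 and their relatives form a group of 9 listed genes around the α-arrestins, chosen by symbol with earlier results of these data known. The paper names ARRDC4 among new α-cell-specific genes found in these same cells, so its higher α-cell level below is no independent result. Rows under 5 of the 9 symbols were found among 21041 macaque genes: TXNIP, ARRDC4, ARRDC3, ARRDC2 and MLX. ARRDC1, MLXIPL, TXN and TXNRD1 had no row under these symbols and were not analysed here. The cells came from islets of the pancreatic tail of 16 healthy, non-diabetic cynomolgus monkeys, 4 young females, 4 young males, 4 old females and 4 old males, with no treatment or genetic change in any group. Per the methods, cells were released from hand-picked islets by enzymes, cleared of debris by sorting with propidium iodide, picked by mouth pipette and sequenced in 4 libraries per monkey with unique molecular identifiers (UMIs, tags that count each captured mRNA once). The tissues were collected on sequential days, so that monkey and collection day cannot be told apart.

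TXNIP binds and inhibits thioredoxin, a small protein that reduces oxidised proteins, and it helps to remove glucose transporters from the cell surface. Its transcription rises when glucose enters the cell, through MLX paired with MondoA or with ChREBP (the product of MLXIPL), and in β-cells high TXNIP is known as a factor in the loss of these cells in diabetes. ARRDC4 is the nearest relative of TXNIP and answers to the same glucose-sensing factors, whereas ARRDC2 and ARRDC3 are adaptors that bring ubiquitin ligases of the NEDD4 family to membrane proteins.

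Cells with more than 800 detected genes and more than 10000 UMIs, 5908 of 6141, were typed by their leading hormone gene: GCG for α-cells, INS for β-cells, SST for δ-cells and PPY for PP-cells. This gave 4503 α-cells, 1219 β-cells, 112 δ-cells and 74 PP-cells. UMIs were summed per monkey where a type had at least 5 cells, which left α- and β-cell sums for all 16 monkeys, δ-cell sums for 11 and PP-cell sums for 6, and levels below are CPM (the UMIs of a gene scaled to the same total in every sum, the usual CPM scale) of these sums. Besides the hormone, 5 of 7 α-cell markers, 6 of 7 β-cell markers, 5 of 5 δ-cell markers and 2 of 5 PP-cell markers were highest on average in their own type, so the PP label rests mainly on PPY. The highest hormone had at least 2 times the UMIs of the next in 98.1% of α-cells, 89.3% of β-cells, 90.2% of δ-cells and 78.4% of PP-cells. This cut was chosen after seeing the data. At the planned cut of 5 times the share was 89.3% in α-cells, but 16.2% in β-cells, 25.9% in δ-cells and 2.70% in PP-cells. The median number of UMIs per cell in a monkey ranged from 41388.5 to 92680.5 among the young and from 60009.5 to 88918 among the old. In a sum over cells, fewer expressing cells and less RNA per cell cannot be told apart.

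TXNIP was highest in β- and δ-cells and lower in α- and PP-cells. In β-cells it was at 360 ± 334 CPM (SD, n = 16 monkeys), with a lowest value of 14.6, a median of 238 and a highest value of 1121. In δ-cells it was at 271 ± 292 CPM (n = 11), between 67.3 and 1048, with a median of 131. In α-cells it was at 65.4 ± 32.7 CPM (n = 16), between 21.0 and 130, with a median of 58.9. In PP-cells it was at 28.5 ± 23.4 CPM (n = 6), with single values of 14.6, 42.5, 0, 9.05, 56.2 and 48.6 CPM, of which those at 0 and 9.05 rest on 0 and 3 UMIs. The order by mean was β, δ, α and PP, and the neighbours β and δ, and α and PP, were not separated by the test below.

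ARRDC4 took nearly the reverse order. It was at 337 ± 83.5 CPM in α-cells (n = 16), between 149 and 485, with a median of 333. PP-cells followed at 206 ± 70.6 CPM (n = 6), with single values of 201, 177, 209, 163, 146 and 342 CPM. β-cells were at 72.3 ± 28.8 CPM (n = 16), between 27.1 and 131, and δ-cells at 67.0 ± 41.1 CPM (n = 11), between 13.2 and 131. No monkey's β-cell value reached the lowest α-cell value.

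**Figure D1:**
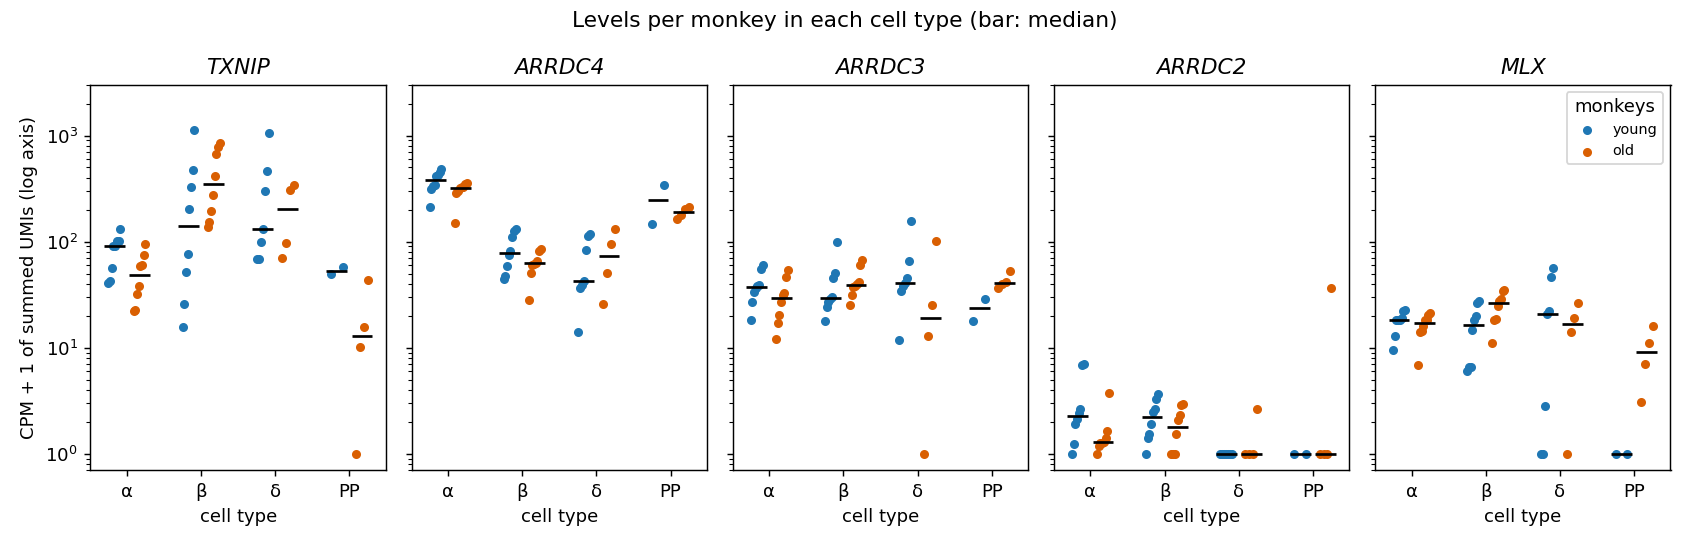
Level of each of the 5 genes (panels) as CPM + 1 of summed UMIs on a log axis, by cell type; each point is 1 monkey, blue for young and orange for old, and bars are medians of each age group. TXNIP spreads from 14.6 to 1121 CPM in β-cells, ARRDC4 is high in α-cells in all monkeys, and ARRDC2 is at most 6.10 CPM apart from 1 PP-cell sum at 35.3 CPM.

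The comparison between cell types asked whether the endocrine types differ in these genes within the same animals. With monkey as a term, edgeR's quasi-likelihood test with Benjamini-Hochberg adjustment over 12899 genes called 2 of the 5 members between β- and α-cells, where 25.0% of all genes tested were called. TXNIP was higher in β-cells by 1.94 ± 0.41 (log2 fold change ± SE, 3.82-fold, adjusted p = 0.000208). ARRDC4 was lower in β-cells, with a log2 fold change of -2.28 ± 0.17 (4.87-fold lower, adjusted p = 8.84e-16). The median of all genes in this comparison was -0.11, well inside both differences. Within animals, ARRDC4 was lower in β-cells in 16 of 16 monkeys, by -3.27 to -1.75 on the log2 scale. TXNIP was higher in β-cells in 12 of 16 monkeys, and the log2 ratio ran from -2.63 to 4.32.

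The other 3 members did not pass between β- and α-cells. ARRDC3, which is known for turning down β-adrenergic receptors, was at 33.4 ± 14.4 CPM in α-cells and 40.4 ± 20.2 CPM in β-cells (log2 fold change 0.36 ± 0.30, adjusted p = 0.415). It was higher in β-cells in 11 of 16 monkeys, and the ranges of the types overlapped, with medians of 32.2 CPM in α-cells and 36.5 CPM in β-cells. MLX, the shared partner of the glucose-sensing factors, was at 15.9 ± 4.41 CPM in α-cells and 19.3 ± 9.53 CPM in β-cells (0.16 ± 0.43, adjusted p = 0.834). ARRDC2 was at 1.38 ± 1.94 CPM in α-cells and 1.05 ± 0.884 CPM in β-cells (0.20 ± 0.63, adjusted p = 0.863), from 428 and 98 UMIs in all.

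**Figure D2:**
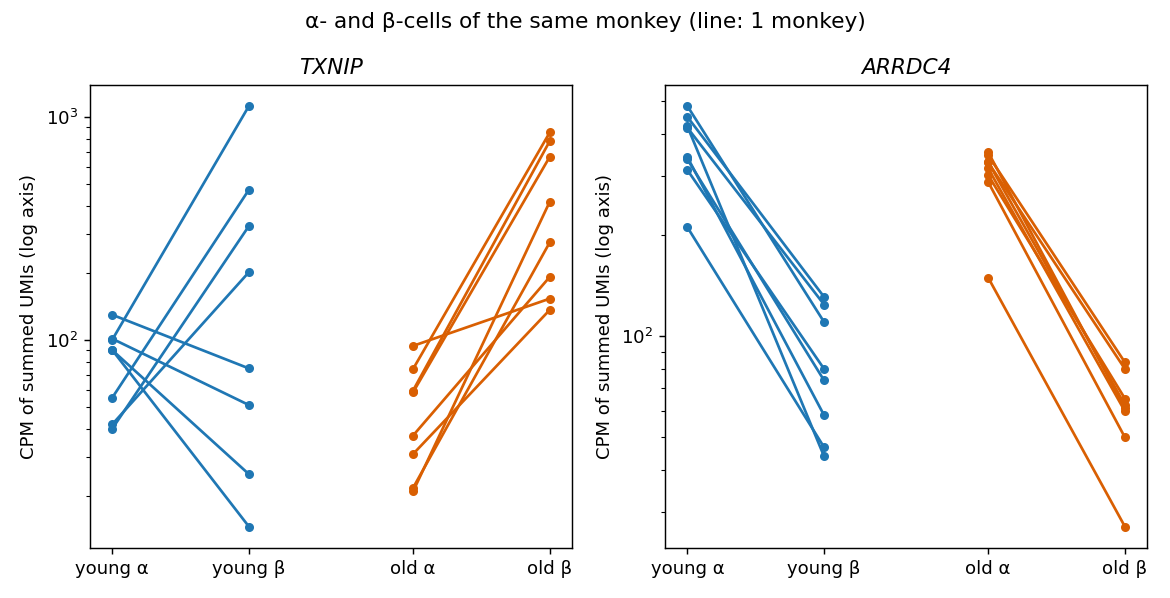
TXNIP (left) and ARRDC4 (right) in α- and β-cells of the same monkey, as CPM of summed UMIs on a log axis; each line joins the values of 1 monkey, young in blue and old in orange. All 16 ARRDC4 lines fall from α to β, whereas TXNIP rises in 8 of 8 old and in 4 of 8 young monkeys.

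δ-cells differed from α-cells in the same directions as β-cells for both leading genes. Against α-cells, where 23.2% of genes were called, 2 of 5 members passed: TXNIP was higher in δ-cells by 1.68 ± 0.42 (adjusted p = 0.00267) and ARRDC4 lower, at -2.49 ± 0.22 (adjusted p = 2.79e-13). ARRDC4 was below the α-cell level in 11 of 11 monkeys and TXNIP above it in 8 of 11. The median of all genes was -0.47 in this comparison. Where only cells whose highest hormone had at least 5 times the UMIs of the next were kept, TXNIP was at 2.23 ± 0.81 (adjusted p = 0.111) with δ-cell sums from 2 monkeys. Between δ- and β-cells, 19.8% of all genes but 0 of 5 members were called by edgeR (DESeq2 also called 0, and 1 had an unadjusted p under 0.05). The differences were -0.25 for TXNIP (95% interval -1.12 to 0.62) and -0.20 for ARRDC4 (-0.61 to 0.20). TXNIP was higher in δ- than in β-cells in 7 of 11 monkeys and lower in 4, so that the direction varied among the animals.

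PP-cells held less TXNIP and more ARRDC4 than β- and δ-cells, and less ARRDC4 than α-cells. Against α-cells, with 6.61% of genes called, 1 of 5 members passed: ARRDC4 was lower at -0.93 ± 0.26 (adjusted p = 0.0207), and in 6 of 6 monkeys. This call was lost in the fit without monkey as a term (-0.71 ± 0.29, adjusted p = 0.109). TXNIP was at -1.65 ± 0.64 (adjusted p = 0.108), and below the α-cell level in 5 of 6 monkeys. Against β-cells, with 17.2% of genes called, 2 of 5 passed: TXNIP was lower in PP-cells at -3.58 ± 0.66 (adjusted p = 7.63e-05) and ARRDC4 higher by 1.35 ± 0.24 (adjusted p = 5.64e-05), each in 6 of 6 monkeys. Against δ-cells, with 10.3% of genes called, 2 of 5 passed: TXNIP was lower at -3.33 ± 0.67 (adjusted p = 0.000482) and ARRDC4 higher by 1.56 ± 0.26 (adjusted p = 3.7e-05), each in 5 of 5 monkeys. With each cell thinned to 10000 UMIs, ARRDC4 no longer passed between PP- and δ-cells (0.87 ± 0.32, adjusted p = 0.0743).

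ARRDC2 was nearly undetected in δ-cells, with 1 UMI in the sums of 11 monkeys, and in PP-cells all its 49 UMIs came from old female 2. Its calls in the smaller types moved with the fit. Between PP- and β-cells it passed without monkey as a term (2.72 ± 0.88, adjusted p = 0.0185), as it did between PP- and δ-cells (5.10 ± 1.44, adjusted p = 0.00959). Between δ- and β-cells it passed without old female 3 (-3.80, adjusted p = 0.0495) or old female 4 (-3.81, adjusted p = 0.0419). MLX, at 26 UMIs in the PP-cell sums, passed between PP- and β-cells with DESeq2 (-1.81 ± 0.67, adjusted p = 0.0319) and without old female 2 (-2.89, adjusted p = 0.033).

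TXNIP varied more between animals in β- than in α-cells as a fold. The highest and lowest monkeys differed 76.9-fold in β-cells and 6.20-fold in α-cells, against 4.83-fold and 3.25-fold for ARRDC4. In δ-cells TXNIP differed 15.6-fold over 11 monkeys, and in PP-cells 1 of 6 sums was at 0. Among the young, β-cell TXNIP was at 14.6 CPM in young male 2, 25.0 in young female 2, 51.1 in young female 3, 74.6 in young female 1, 202 in young male 1, 325 in young male 3, 472 in young female 4 and 1121 in young male 4. The first 4 of these were below the α-cell value of the same animal and the last 4 above it. The 8 old monkeys lay between 137 and 854 CPM, inside the range of the young, with 7 of 8 above the median of the young.

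The lowest and the highest monkey were also apart in each of their libraries. The 4 libraries of young male 4 lay between 1081 and 1521 CPM and those of young male 2 between 6.48 and 25.3 CPM, with no overlap. In young female 4 they lay between 427 and 475 CPM. In old female 3 and old male 4, whose libraries went down to 3 and 2 β-cells, they ran from 356 to 2416 and from 107 to 2323 CPM. Wide ranges were also found with more cells, from 27.9 to 483 CPM in young male 3 and from 13.4 to 140 CPM in young female 1, whose libraries held at least 9 and 7 β-cells.

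**Figure D3:**
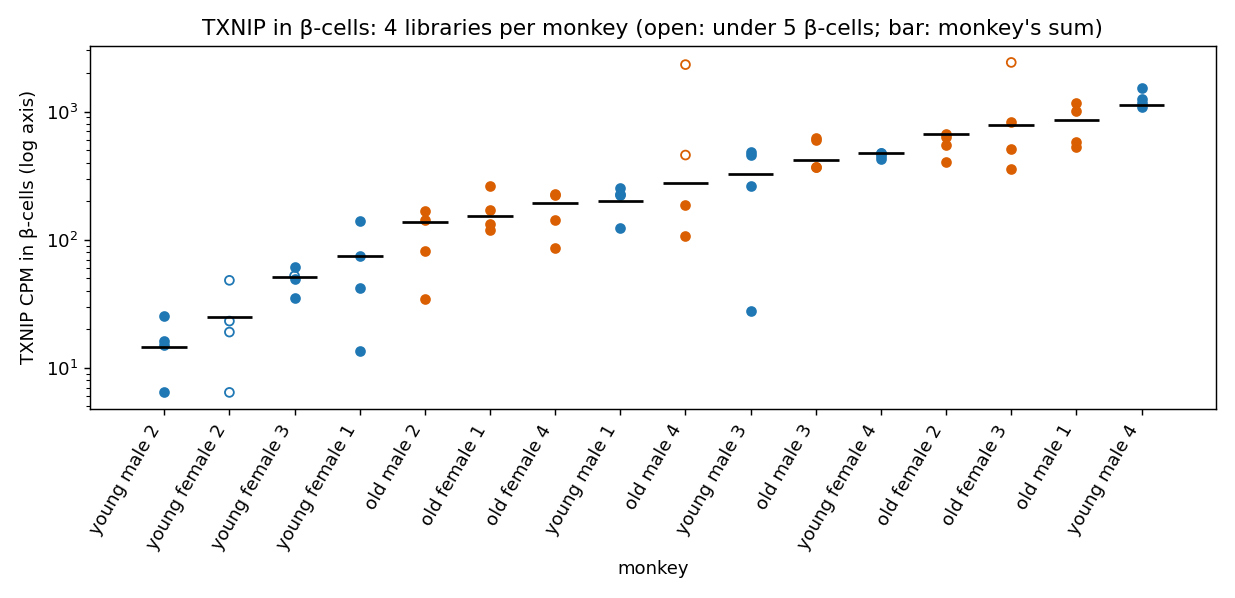
TXNIP in β-cells of each of the 4 libraries of a monkey, as CPM of summed UMIs on a log axis; monkeys are ordered by their own sum (black bar), blue for young and orange for old, and open points are libraries with under 5 β-cells. Libraries of young male 2 (6.48 to 25.3 CPM) and young male 4 (1081 to 1521 CPM) lie at opposite ends. Points are CPM of plain totals and bars are CPM of totals adjusted by TMM, so their scales differ somewhat.

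Single cells differed in how the 2 genes were spread. TXNIP had at least 1 UMI in 61.9% of α-cells (95% Clopper-Pearson interval 60.4 to 63.3%) at a median of 64894 UMIs per cell, and in 78.8% of β-cells (76.3 to 81.0%) at a median of 74425. Intervals on cells cover counting error only, and cells of 1 monkey are not replicates. With each cell thinned to 10000 UMIs these shares were 25.1% and 55.2%, and 47.3% in δ-cells and 18.9% in PP-cells. ARRDC4 was detected in 95.9% of α-cells and 85.1% of β-cells, and after thinning in 78.4% of α-cells, 63.5% of PP-cells, 42.9% of δ-cells and 37.5% of β-cells.

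In α-cells most TXNIP lay in few cells. The highest 5% of α-cells held 58.7% of the TXNIP UMIs of the type, against 37.7% in β-cells, whereas for ARRDC4 the highest 5% of α-cells held 23.9%. The median α-cell was at 14.6 CPM of TXNIP and the median β-cell at 97.4 CPM, and by the median cell TXNIP was higher in β-cells in 13 of 16 monkeys. The 226 α-cells with the most TXNIP (281 CPM or more) came from all 16 monkeys, 3 to 32 from each, 158 from young and 68 from old animals. Their median INS level was 5116 CPM against 5353 CPM in the other α-cells, and their median ARRDC4 level 217 against 243 CPM. At least 3 markers of 1 non-endocrine type were present in 24.3% of them and in 6.36% of the other α-cells. Without all cells with such markers, TXNIP was higher in β- than in α-cells by 2.23 ± 0.39 (adjusted p = 1.04e-05, edgeR's quasi-likelihood test). Among PP-cells, 1 cell of young female 1 at 4672 CPM held 82.8% of the TXNIP UMIs of the type, and it entered no sum because that monkey had 1 PP-cell.

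**Figure D4:**
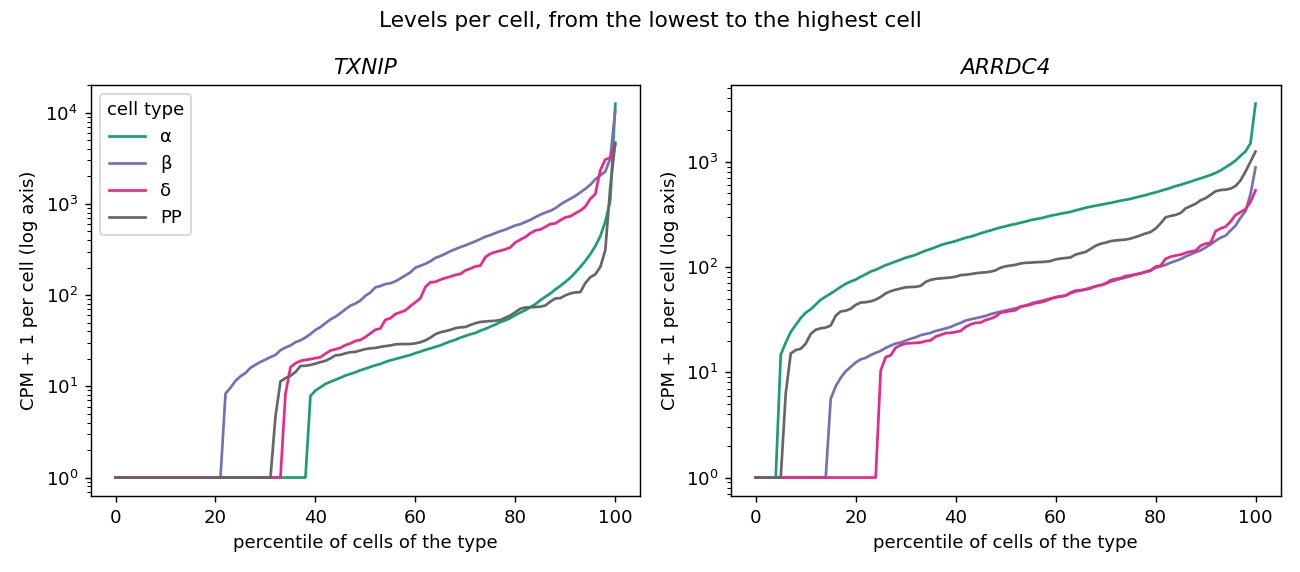
TXNIP (left) and ARRDC4 (right) per cell as CPM + 1 on a log axis, against the percentile of cells of each type; lines are α-, β-, δ- and PP-cells. The TXNIP line of α-cells stays low (median 14.6 CPM) and climbs in the top cells, whereas that of β-cells has a median of 97.4 CPM, and the ARRDC4 median of α-cells (243 CPM) is above those of the other types.

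The comparison of old with young animals, with sex as a term, called no member in any type. In α-cells 0 of 5 members passed with edgeR and 0 with DESeq2, and 2 had an unadjusted p under 0.05, where 0% of 12916 genes were called. TXNIP was at 81.1 ± 32.1 CPM in the 8 young and 49.6 ± 26.4 CPM in the 8 old monkeys, with ranges of 40.0 to 130 and 21.0 to 94.2. The ranges overlapped, 4 of the 8 old monkeys lay below every young one, and the log2 fold change was -0.74 ± 0.29 (unadjusted p = 0.019, adjusted p = 0.705). ARRDC4 was at 372 ± 88.6 CPM in young and 302 ± 65.2 CPM in old α-cells (-0.30 ± 0.17, adjusted p = 0.779), and 8 of 8 old monkeys were below the median of the young. ARRDC2 was at 2.17 ± 2.43 CPM in young and 0.600 ± 0.877 CPM in old α-cells (-2.16 ± 0.94, unadjusted p = 0.034, adjusted p = 0.705), on 348 and 80 UMIs. ARRDC3 was at -0.36 ± 0.30 (adjusted p = 0.852) and MLX at -0.12 ± 0.24 (adjusted p = 0.94), and neither passed.

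Markers of other cells differed between young and old α-cells in the pooled cells, which was not tested over monkeys. At least 3 markers of 1 non-endocrine type were found in 11.9% of young and 2.26% of old α-cells. These shares pool the cells of all monkeys of a group, so that a few animals may carry them. The summed level of 4 acinar markers ran from 1.23 to 1814 CPM in young and from 0.468 to 5.52 CPM in old α-cells, with medians of 2.63 and 1.01 CPM. Median summed levels of stellate markers (32.0 and 4.48 CPM) and immune markers (13.9 and 7.22 CPM) were also higher in young α-cells, whereas those of ductal markers (26.3 and 59.5 CPM) and endothelial markers (4.25 and 11.2 CPM) were higher in old ones, and the ranges of young and old overlapped for each list. Without the cells that had such markers, TXNIP was at -0.83 ± 0.28 in old α-cells (adjusted p = 0.692). The summed level of 9 immediate-early genes, which rise when cells are handled, had a median of 3571 CPM in young and 2745 CPM in old α-cells, with ranges of 1734 to 5543 and 1144 to 5221, and its part in the TXNIP difference was not tested.

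In β-cells 0 of 4 members tested passed with edgeR and 0 with DESeq2, and none had an unadjusted p under 0.05, where 0.0470% of 10628 genes were called. TXNIP was at 286 ± 375 CPM in young and 434 ± 293 CPM in old monkeys (0.76 ± 0.63, 95% interval -0.47 to 1.99, adjusted p = 0.992). Its medians were 138 CPM in young and 346 CPM in old monkeys, and 7 of 8 old monkeys were above the median of the young. ARRDC4 was at 83.5 ± 34.4 CPM in young and 61.1 ± 17.6 CPM in old β-cells (-0.44 ± 0.26, adjusted p = 0.957), and 6 of 8 old monkeys were below the median of the young. MLX was at 14.8 ± 8.83 and 23.8 ± 8.34 CPM (0.67 ± 0.38, adjusted p = 0.951), with 3 of 8 old monkeys above every young one. ARRDC3 was at 39.3 ± 26.0 and 41.4 ± 14.0 CPM (0.084 ± 0.31, adjusted p = 0.999).

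**Figure D5:**
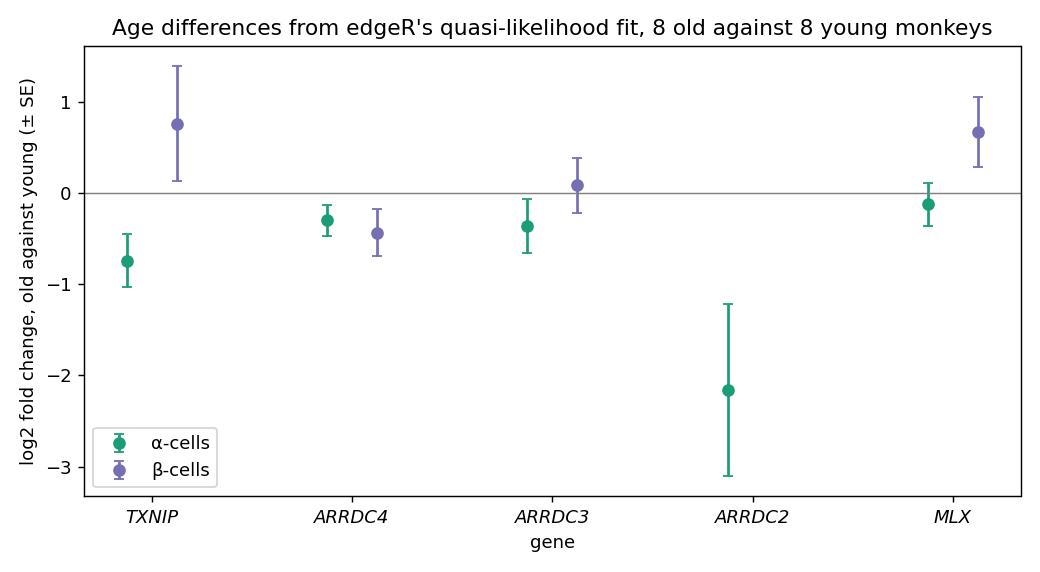
Log2 fold change of old against young monkeys (points) with its SE (bars) for each gene in α- and β-cells, from edgeR's quasi-likelihood fit. TXNIP lies at -0.74 in α-cells and 0.76 in β-cells; ARRDC2 was too low for the test in β-cells, and no gene shown passed the adjusted threshold.

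The TXNIP difference with age was below 0 in α-cells and above 0 in β-cells, and neither passed. Where only cells whose highest hormone had at least 5 times the UMIs of the next were kept, it was at -0.74 ± 0.34 in α-cells and at -0.53 ± 0.63 in β-cells, the latter with sums from 8 monkeys, so that the sign in β-cells turned. β-cells held more TXNIP than α-cells in 8 of 8 old monkeys, with log2 ratios of 0.70 to 4.32, and in 4 of 8 young ones, with ratios of -2.63 to 3.48. Tested as the age effect in β-cells minus that in α-cells, TXNIP was at 2.13 ± 0.79 (unadjusted p = 0.0126, adjusted p = 0.719), so that the difference between the types did not pass. Under the same hormone filter it was at 0.53 ± 0.80. By this test edgeR called 0 of 5 members (DESeq2 also 0, 1 at an unadjusted p under 0.05) and 0% of 13322 genes. ARRDC4 was at -0.12 ± 0.18, and its log2 ratio of β- to α-cells was similar in young (-2.23 ± 0.49, SD) and old monkeys (-2.33 ± 0.20, SD).

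In δ-cells (7 young and 4 old sums) and PP-cells (2 young and 4 old sums) old and young animals were also compared. edgeR called 0 of 4 and 0 of 3 members tested, DESeq2 0 and 0, and 0% of 6484 and 0% of 6568 genes passed. TXNIP was at -0.30 ± 0.65 in δ-cells and at -3.29 ± 1.90 in PP-cells, where the 2 young monkeys were at 48.6 and 56.2 CPM and the 4 old ones between 0 and 42.5 CPM. Both young PP-cell sums came from males and 2 of the old ones from females. The old values of 0 and 9.05 CPM rest on 0 and 3 UMIs. ARRDC4 was at 0.30 ± 0.72 in δ-cells and -0.36 ± 0.70 in PP-cells. Whether age acted differently in males and females was tested in α- and β-cells, and edgeR called 0 of 5 members in each, with none at an unadjusted p under 0.05 and 0 called by DESeq2, where 0.00707% of 14146 and 0% of 11693 genes passed. In simulated counts, genes changed by a log2 of 2 were recovered in 33% and 24% of cases by these 2 tests. For age in δ- and PP-cells recovery was 21% and 2%. The 0 calls in these comparisons therefore do not show that age had no effect.

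Among lists of genes around TXNIP, no test compared one list with another or with all genes. Of 20 other targets of ChREBP, 13 were tested, of which 6 were higher and 2 lower in β-cells, and their median log2 fold change was 1.10 against -0.11 for all genes. RGS16, which speeds the shutdown of G-protein signals, was at 1044 ± 802 CPM in β-cells and 24.6 ± 17.8 CPM in α-cells (5.25 ± 0.34, adjusted p = 2.1e-18). PFKFB2, which makes an activator of glycolysis, was higher by 4.11 ± 0.25 and SCD, a fatty acid desaturase, by 2.65 ± 0.28. Of 5 genes tested for glucose entry and phosphorylation, 2 were higher in β-cells, with SLC2A2, the glucose transporter GLUT2, at 705 ± 186 CPM against 9.99 ± 9.95 CPM (6.61 ± 0.27, adjusted p = 5.43e-26). Of 10 genes tested of the MLX and MAX network, 0 were higher and 2 lower. These shares stand beside the 25.0% of all genes called.

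The next lists were also compared between β- and α-cells, where 25.0% of all genes were called, 1117 higher and 2105 lower. Of 20 other thioredoxin-system genes tested, 2 were higher and 2 lower in β-cells, with a median of -0.010. The peroxiredoxins PRDX1 (0.99 ± 0.28, adjusted p = 0.00516) and PRDX3 (0.67 ± 0.17, adjusted p = 0.00203) were higher and PRDX2 lower (-0.39 ± 0.13, adjusted p = 0.0246). Of 12 genes tested of the pathway of NRF2, the antioxidant-response factor, 2 were higher and 1 lower, with NFE2L2 (which encodes NRF2) at 1.03 ± 0.26 and OSGIN1 at -1.39 ± 0.34. Of 10 other arrestins and NEDD4-family ligases, 0 were higher and 2 lower, led by HECW2, one of the ligases, at -1.51 ± 0.36. Of 13 genes that respond to FOXO or glucocorticoids, 1 was higher and 5 lower. Among these PDK4, which holds glucose carbon back from the mitochondrion, was at 80.0 ± 35.1 CPM in β-cells and 520 ± 263 CPM in α-cells (-2.65 ± 0.17, adjusted p = 5.13e-18), the clock gene PER1 was at -1.59 ± 0.27 and FKBP5 was higher by 1.19 ± 0.34. Of 7 inflammasome and stress-kinase genes linked to TXNIP, 0 were higher and 2 lower, led by MAP3K5 (ASK1, a kinase that thioredoxin inhibits) at -3.35 ± 0.41.

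Immediate-early genes, which can rise when cells are handled, differed between the cell types. Handling itself was not measured, and the cause of these differences was not tested. Of 8 tested, 0 were higher and 7 lower in β- than in α-cells (25.0% of all genes called), with a median of -2.25, led by DUSP1 (-2.35 ± 0.23), ATF3 (-2.32 ± 0.45) and NR4A1 (-2.28 ± 0.14). Against α-cells, 0 were higher and 5 lower in δ-cells (23.2% of all genes). In PP-cells 1 was higher and 0 lower than in α-cells (6.61% of all genes). In PP-cells 6 of 8 were called higher than in β-cells, where 17.2% of all genes were called in either direction, and 6 of 8 higher than in δ-cells (10.3% of all genes). In δ-cells 4 of 8 were called higher than in β-cells (19.8% of all genes). Their part in the TXNIP and ARRDC4 differences between the types was not tested. With age, 0 genes of these 9 lists passed in α- or in β-cells with edgeR.

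Over the monkeys TXNIP and ARRDC4 were compared on log2 CPM. In α-cells Pearson's r was 0.39 (adjusted p = 0.288, permutation test) and Spearman's rho 0.55 (p = 0.0287, adjusted p = 0.0575, permutation test, 2 types tested). Without old male 3 and old male 4, the monkeys farthest from the median of TXNIP, r was 0.53 (adjusted p = 0.111, permutation test). Within the 8 young monkeys r was 0.32 and rho 0.14, and within the 8 old ones r was 0.22 and rho 0.38. In β-cells r was 0.20 and rho 0.35 (adjusted p = 0.45 and 0.183, permutation test), and r was 0.34 without the 2 farthest monkeys. None of these passed. With the mean over cells of log2(CPM/10 + 1) in place of the sums, rho in α-cells was 0.68 (adjusted p = 0.00824, permutation test) and passed, while r was 0.54 (adjusted p = 0.0535, permutation test). This is an alternative measure of the same relation, with p adjusted over the 2 types only and not over the other settings. In β-cells r was 0.12 and rho -0.11 by this measure (adjusted p = 0.678 and 0.678, permutation test). Across single cells of 1 monkey thinned to 10000 UMIs, rho between the genes ran from -0.12 to 0.13 in α-cells over 16 monkeys (median 0.0058), and from -0.098 to 0.35 in β-cells over 15 monkeys (median 0.080), on sparse counts that share depth.

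Each gene was also compared with itself between types over monkeys, a comparison added after the values were seen. ARRDC4 in β-cells moved with ARRDC4 in α-cells (r = 0.78, adjusted p = 0.00174, rho = 0.56, adjusted p = 0.0415, permutation test, 16 monkeys, 3 relations tested). Without old female 4 and young male 4, the monkeys farthest from the β-cell median, r was 0.56 and rho 0.35 (adjusted p = 0.0521 and 0.335, permutation test). Neither passed. TXNIP in δ-cells moved with TXNIP in β-cells over 11 monkeys (r = 0.67, adjusted p = 0.0295, rho = 0.67, adjusted p = 0.0415, permutation test). Without young male 3 and young male 1, over 9 monkeys, r was 0.71 and rho 0.70 (adjusted p = 0.0521 and 0.130, exact permutation test), and neither passed. TXNIP in β-cells and in α-cells gave r = -0.32 and rho = -0.23 (adjusted p = 0.227 and 0.398, permutation test). Types of 1 monkey share libraries and a collection day.

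The genes whose α-cell levels followed TXNIP most closely over the 16 monkeys, among 8050 genes with a mean of at least 10 CPM, were UBE3D (r = 0.87), SMIM4 (0.82), PTGR1 (0.79), SHC1 (0.78) and AGPAT2 (0.76). For ARRDC4 they were FAM20B (0.85), ENSMFAG00000003997 (0.79), ENSMFAG00000002541 (0.73), SLC52A2 (0.71) and ZSWIM5 (0.71). By this measure ARRDC4 ranked 501 for TXNIP, ARRDC3 860 and MLX 6366. These ranks describe likeness among the animals and carry no test.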

How the data were processed

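The deposited files hold UMI counts per gene and cell for 64 libraries of 16 monkeys; per the methods and the submitters' processing notes, which name CASAVA 1.8 and TopHat2 2.0.12, the authors aligned trimmed reads to the Ensembl cynomolgus genome, counted uniquely mapped reads with htseq-count and counted each UMI once. Age group and sex were taken from the series' design text, which pairs each individual with its group. Spike-in RNAs (95 rows) were left out. All 6141 cells had distinct names and count columns. Members, gene lists and tests were chosen with earlier results of these data known. All listed genes with a row were named; from each list, up to 3 called genes with the largest change and a mean of at least 10 CPM; and the 5 genes most like TXNIP and ARRDC4. 

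Counts were summed per monkey and type (at least 5 cells), scaled by TMM, filtered by edgeR's filterByExpr and tested with edgeR 4.0.16 (R 4.3.3) at an adjusted p of 0.05: monkey and type between types, sex and age within a type. SEs were derived from the F statistic, and 95% intervals from the SE. Alternatives included DESeq2 1.42.0, other filters on cells and genes, and leaving out each monkey. Permutation tests were two-sided, exact under 10 monkeys and otherwise with 100000 resamples, and log2 CPM had a prior count of 2 (between types, log2 of the CPM). Doublets were not called; the filters on hormones and on non-endocrine markers bear on them. Other steps used Python 3.11.15, numpy 2.4.6 and scipy 1.17.1. Fits were tested on simulated counts. There, genes changed by a log2 of 1 were recovered in 54% of cases for age in α-cells and 28% in β-cells. UMI totals per monkey ranged from 21982838 to 35850398.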

Additional observations from a re-analysis of the deposited data

Results flagged for a closer look

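In 8 of 34 groups of 4 to 8 monkeys checked, 1 monkey lay far from the others of its type and age by Dixon's criterion. Chance gives this in about 1 of 20 groups only where values are normally distributed, so the count shows no excess of such monkeys. For TXNIP these were young male 4 in β-cells at 1121 CPM and young male 3 in δ-cells at 1048 CPM. For ARRDC4 it was old female 4 in α-cells at 149 CPM, the lowest. For ARRDC3 they were young male 3 in β-cells at 97.8 CPM and young female 2 in δ-cells at 156 CPM. For ARRDC2 it was old female 2 in α-cells at 2.73 CPM, in δ-cells at 1.62 CPM and in PP-cells at 35.3 CPM. The last 2 are 1 UMI and 49 UMIs, with 0 UMIs in the other old sums of these types, where any value above 0 would be flagged.

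Without young male 4 the TXNIP difference of old against young β-cells was 1.39, and it did not pass.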

How the results depend on the processing

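Of 338 values under an alternative, for TXNIP and ARRDC4 in the comparisons of types and ages and for ARRDC2, ARRDC3 and MLX between β- and α-cells and with age in these types, 319 kept their direction and side of the threshold, 3 lost their call, 0 gained one and 16 changed sign. No called value among them changed sign. These leave out the 6 calls that ARRDC2 and MLX gained in comparisons with δ- or PP-cells, given in the report. Both calls between β- and α-cells held under each alternative run, TXNIP at 1.76 to 2.22 and ARRDC4 at -2.32 to -2.21 when each monkey was left out.

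With the highest hormone at least 5 times the next, 1 member was called between δ- and α-cells instead of 2, and TXNIP of old against young β-cells was at -0.53, with β-cells of 8 monkeys. Without the replicate block 0 members were called between PP- and α-cells, and ARRDC2 between β- and α-cells was at -0.40. Thinned to 10000 UMIs, 1 member was called between PP- and δ-cells, and ARRDC4 between δ- and β-cells was at 0.087. With the highest hormone at least 2 times the next, a setting chosen after seeing the data, ARRDC4 between δ- and β-cells was at 0.087, MLX between β- and α-cells at -0.013, ARRDC3 of old against young β-cells at -0.085 and the ARRDC4 age effect in β- against α-cells at 0.18. Without cells with non-endocrine markers, TXNIP between δ- and β-cells was at 0.047 and ARRDC3 of old against young β-cells at -0.053. None of these changes of sign involved a call, and the cause was not tested. Without the 2 farthest monkeys the relation of TXNIP in δ- and β-cells was at 0.71 and that of ARRDC4 in β- and α-cells at 0.56, and neither passed.

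Leaving out each monkey in turn gave 0 to 1 members called between δ- and β-cells. It gave log2 changes of -0.010 to 0.43 for ARRDC2 and -0.048 to 0.33 for MLX between β- and α-cells, -0.24 to 0.015 for MLX with age in α-cells, -0.041 to 0.41 for ARRDC3 with age in β-cells, -0.68 to 0.26 for TXNIP and -0.23 to 0.57 for ARRDC4 with age in δ-cells, and -0.90 to 0.42 for ARRDC4 with age in PP-cells.

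Monkey numbers do not pair old and young animals: deviations of same-numbered animals of 1 sex correlated over 0.1 in 2 of 8 pairs in α-cells and 1 of 8 in β-cells, and 3 of 8 young monkeys were closest to their own number in each type. With the number as a replicate block, 0 members were called with age in α- or β-cells, and 0 and 6 genes of all against 0 and 5, while TXNIP of old against young β-cells moved from 0.76 ± 0.63 to 1.48 ± 0.63 (adjusted p = 1.0 by edgeR). Sums with at least 20 cells left δ-cell sums from 0 monkeys and PP-cell sums from 1, so neither type could be fitted. The filter of 5 times left PP-cell sums from 0 monkeys and δ-cell sums from 2. There δ-cells could be compared with α- and β-cells but not by age, and PP-cells not at all.

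DESeq2 called 43 genes with age in α-cells where edgeR called 0, and 39 in β-cells where edgeR called 5. Few cells limit the δ- and PP-cell values.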
